A study of Mus musculus with 6 samples.

Results

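S100 proteins are small calcium-binding proteins made only by vertebrates. Most work as dimers in which each subunit holds a pair of calcium-binding EF-hand loops, and calcium opens a surface that grips a target protein. Inside cells they act on annexins, on the cytoskeleton and on membrane repair. Some are also released as alarm signals by stressed epithelium and by neutrophils. Most of their genes sit together in the epidermal differentiation complex, a block of genes for barrier proteins of surface epithelia such as the cornea.

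Described here are 8 S100 genes, chosen by symbol from a count table of 25006 genes: S100a4, S100a6, S100a8, S100a9, S100a10, S100a11, S100a14 and S100a16. All 8 were found, and all 8 passed the filter on low counts. The table holds 6 RNA-seq libraries of mouse corneal epithelial sheets, the cell layers that cover the front of the eye. There were 3 libraries labelled EphA2 null (EphA2-/- in the series' own design text), called null-labelled below, and 3 labelled wild type. EphA2 is a receptor tyrosine kinase. The sources used here give no strain, age, sex or construction of the null allele. The sample titles also carry a number that falls in a lower or a higher range. The higher range holds the null-labelled libraries 2 and 3, which share a number, and wild type 3. The lower range holds the null-labelled library 1, and wild type 1 and 2, which share a number. Any difference given within 1 genotype or within 1 range therefore has a single library on 1 side. A letter follows the number in each title and differs between libraries that share a number. It is N and R for wild type 1 and 2, and B and N for the null-labelled libraries 2 and 3. The labels do not say what the number or the letter stands for, nor that the samples are separate animals. The p-values therefore reflect only how these samples vary, and that variation may be technical.

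Total counts ran from 15308013 to 27586942 per library. The corneal keratin gene Krt12 lay between 13064 and 16025 CPM in all 6 libraries (CPM, each count relative to its library's TMM-scaled total), so the labelled tissue showed its marker. Epha2 itself was not lower under the null label. It had 285, 653 and 578 CPM in the null-labelled libraries 1, 2 and 3, against 298, 253 and 563 CPM in wild type 1, 2 and 3. Directions by genotype given here rest on the label. Over all genes the libraries separated by title number far more than by genotype. Earlier work on these data had already found this separation, and the ranges were compared for that reason. The contrast below is therefore a description, and the p-values by title number are no independent test of it. In edgeR's quasi-likelihood test, 44.6% of 13147 genes were called between the title number ranges (adjusted p under 0.05), and 0.00778% of 12847 genes between the genotypes. The call by genotype was a single gene, Padi1, which is no S100 gene.

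The 8 genes lie on mouse chromosome 3 (GRCm38). S100a14 (90526856 to 90528837), S100a16 (90537254 to 90543151), S100a4 (90603771 to 90606045), S100a6 (90612882 to 90624181), S100a8 (90668978 to 90670035) and S100a9 (90692632 to 90695721) form 1 cluster. S100a11 (93520488 to 93526287) and S100a10 (93555080 to 93564643) lie further along the chromosome. S100a9 is on the minus strand and the other 7 are on the plus strand. S100a4 shares 302 exon bases with the annotated gene Gm42674 on the same strand, so its counts could depend on how shared reads were assigned.

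S100a8 and S100a9 encode the subunits of calprotectin, a secreted complex that binds calcium, zinc and manganese and limits microbial growth. Their genes are neighbours that point towards each other. S100a4 encodes a protein that binds non-muscle myosin. The 250 bases before the RefSeq start of these 3 genes (GRCm38.p6) are shown because these members had the largest differences by title number, and because S100a8 did not follow its partner gene S100a9. Capitals mark letters that match a TATA box (TATAAA) or a C/EBP motif (TTGCNNAA). The windows are chr3:90668821-90669070 on the plus strand for S100a8, chr3:90695722-90695971 on the minus strand for S100a9 and chr3:90603520-90603769 on the plus strand for S100a4.
S100a8: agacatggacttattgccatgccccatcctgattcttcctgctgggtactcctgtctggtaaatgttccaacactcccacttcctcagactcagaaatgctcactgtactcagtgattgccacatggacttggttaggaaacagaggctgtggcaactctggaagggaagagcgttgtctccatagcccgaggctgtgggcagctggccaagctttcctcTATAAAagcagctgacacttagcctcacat
S100a9: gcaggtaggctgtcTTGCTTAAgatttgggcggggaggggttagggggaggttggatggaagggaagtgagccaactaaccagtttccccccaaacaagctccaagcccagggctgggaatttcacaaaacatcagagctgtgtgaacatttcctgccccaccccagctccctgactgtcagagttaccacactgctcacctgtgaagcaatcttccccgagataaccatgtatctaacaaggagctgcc
S100a4: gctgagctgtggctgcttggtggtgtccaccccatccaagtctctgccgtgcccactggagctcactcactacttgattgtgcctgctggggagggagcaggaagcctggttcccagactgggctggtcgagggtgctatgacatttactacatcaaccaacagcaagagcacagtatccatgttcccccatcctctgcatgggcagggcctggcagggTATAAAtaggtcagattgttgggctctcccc

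S100a8 has TATAAA beginning at position -30 relative to the start, and S100a4 at -31. S100a9 has no TATAAA in this window and has TTGCTTAA beginning at -236. Motifs were searched on both strands. TATAAA is found in 12.4% of all 32851 RefSeq windows of this length and TTGCNNAA in 9.56%. The AP-1 motif TGANTCA is found in 6.75% of all windows. Among the members with a window it is present in S100a11, in 2 places, and in 1 of the 2 windows of S100a16. CACCC, the letters of a KLF motif, is in 52% of all windows and in those of S100a4, S100a9 and S100a16. Of the 8 genes 6 had a RefSeq window. S100a10 and S100a14 were those without.

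By level per kilobase of exon (RPKM, from TMM-scaled CPM and the union of annotated exons), S100a6 was the most abundant of the 8 genes, with 2336 ± 404 RPKM over all 6 libraries (SD, n = 6). S100a6 encodes calcyclin, which binds annexins and the ubiquitin ligase adaptor CacyBP. S100a10, the partner of annexin A2, had 869 ± 146 RPKM, and S100a11, the partner of annexin A1, had 849 ± 101 RPKM. Levels per length of S100a10 ran from 672 to 1013 RPKM and those of S100a11 from 710 to 952 RPKM, so these neighbours in the order overlapped, and S100a10 was the higher in 3 of 6 libraries. S100a14 followed with 403 ± 41.3 RPKM and S100a16 with 336 ± 35.9 RPKM. Their ranges, 342 to 447 RPKM for S100a14 and 295 to 384 RPKM for S100a16, overlapped, but S100a14 was the higher in 6 of 6 libraries.

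The other 3 members were far less abundant. S100a9 had 23.6 ± 10.1 RPKM, S100a4 8.63 ± 4.04 RPKM and S100a8 1.39 ± 0.549 RPKM (SD, n = 6 each). S100a9 ran from 7.11 to 32.4 RPKM and S100a4 from 5.09 to 16.4 RPKM, and S100a9 was the higher in 6 of 6 libraries. S100a8 lay below both in each of the 6 libraries, between 0.765 and 2.04 RPKM. The exon length used is the union over all annotated transcripts, so a gene with long alternative exons, such as S100a14, gets a lower level per length. In CPM, which is not scaled by length, S100a10 lay above S100a11 in every library. The overlap of S100a10 and S100a11 per length thus depends on the exon lengths used.

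**Figure D1:**
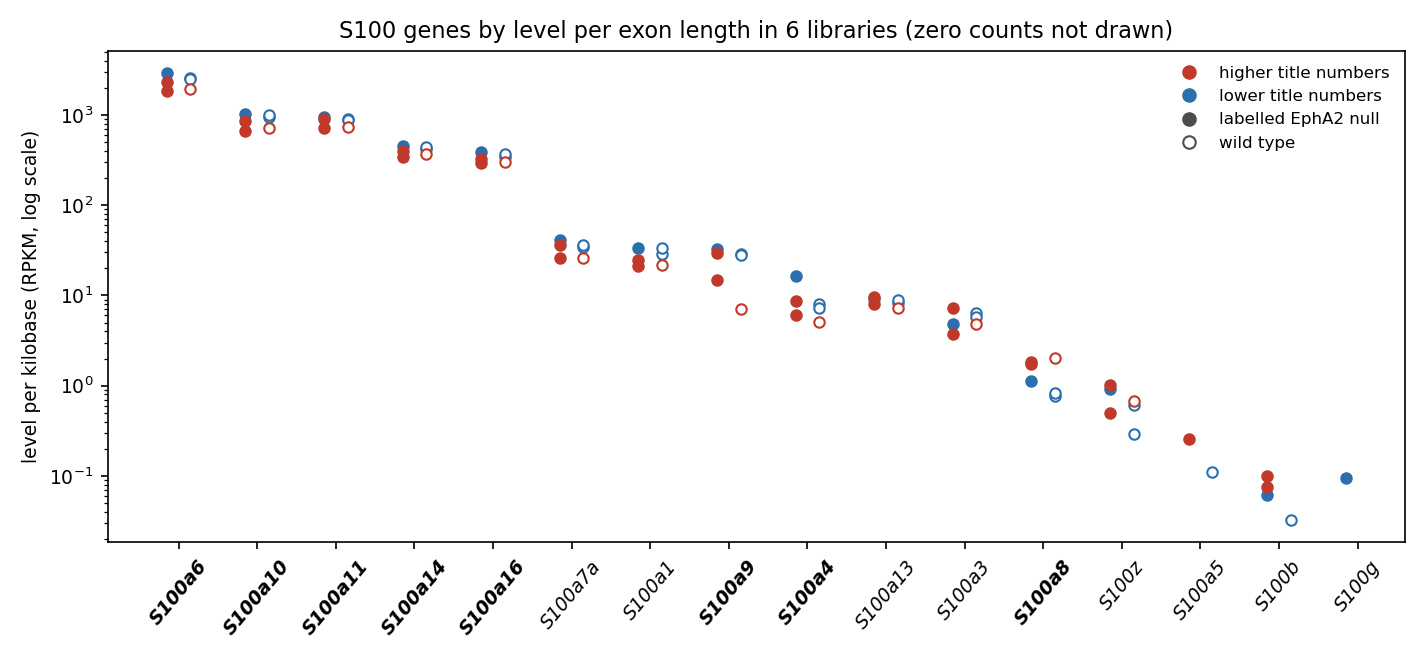
Level per kilobase of exon (RPKM, log scale) of the 8 S100 genes (bold) and of other S100 genes, ordered by mean level, with 1 point per library. Filled points are null-labelled libraries and open points wild type, red for higher and blue for lower title numbers. S100a6 stands highest at 2336 RPKM on average and S100a8 stands lowest of the 8 at 1.39 RPKM.

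Together the 8 genes took 0.741%, 0.552% and 0.464% of all counts in the null-labelled libraries 1, 2 and 3, against 0.659%, 0.680% and 0.484% in wild type 1, 2 and 3. The genotypes overlapped in this share, while each library with a higher title number lay below each library with a lower one. S100a6 alone supplied between 52.5% and 55.9% of the members' counts in every library, and S100a10 between 17.0% and 18.9%.

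Between the genotypes, none of the 8 genes was called. In edgeR with genotype as the only term, 0 of 8 members had an adjusted p under 0.05, beside the 0.00778% of all tested genes that were called. At an unadjusted p under 0.05 there were also 0 of 8, beside 1.18% of all tested genes. DESeq2, which called 0.0272% of all genes it tested, and limma voom also called 0 of 8, with 0 at an unadjusted p under 0.05 in each. Once title number range joined the model, edgeR again called 0 of 8, beside 0.00761% of all tested genes, with 1 of 8 (S100a4) at an unadjusted p under 0.05, beside 3.78% of all tested genes. DESeq2 with that model had 2 of 8 (S100a4 and S100a9) under 0.05 unadjusted, beside 2.14% of all genes. The median log2 fold change of the 8 members (null-labelled over wild type) was 0.02, beside 0.01 over all tested genes. All 8 members overlapped between the genotypes, while 3.73% of all tested genes did not (1.71% lay higher and 2.02% lower without overlap).

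The abundant members had the narrowest intervals. For S100a6 the log2 fold change was 0.01 with a 95% interval of -0.47 to 0.50, for S100a10 it was -0.07 (-0.54 to 0.40) and for S100a11 0.03 (-0.35 to 0.41). For S100a14 it was -0.04 (-0.40 to 0.31) and for S100a16 -0.01 (-0.37 to 0.34). The signs of these 5 small values turned under 1 or more of the other settings run. The scarce members had wider intervals, 0.60 (-0.31 to 1.51) for S100a4, 0.39 (-0.68 to 1.46) for S100a8 and 0.26 (-0.95 to 1.47) for S100a9. With 1 library left out, S100a4 ran from 0.11 (without the null-labelled library 1) to 0.88 (without the null-labelled library 3), and S100a8 from 0.13 (without wild type 1) to 0.95 (without wild type 3). S100a9 ran from -0.16 (without wild type 3) to 0.54 (without wild type 1), so its sign turned too. Differences within the 95% intervals above could not be resolved in this fit, with genotype as its only term and 3 libraries a group. With title number range as a term the intervals were narrower. They were -0.12 to 0.43 for S100a6, -0.13 to 0.29 for S100a16 and 0.36 to 1.36 for S100a4. These intervals are not adjusted for the number of genes tested, and no member was called in that fit.

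**Figure D2:**
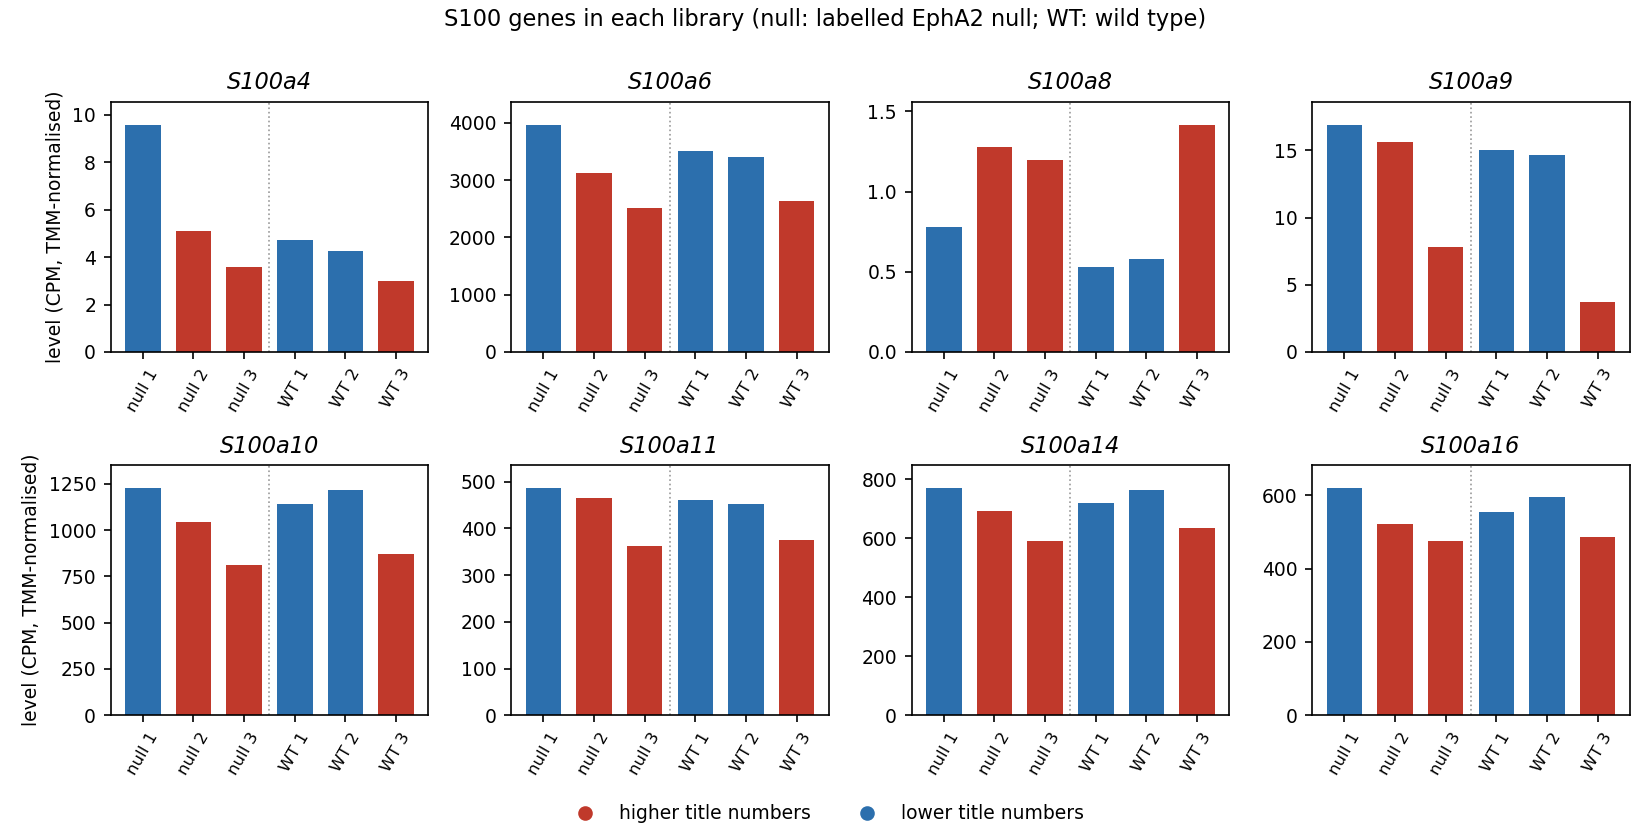
Level of each of the 8 S100 genes (CPM, TMM-normalised, axes starting at 0) in the 3 null-labelled libraries and the 3 wild type libraries, with red bars for higher and blue bars for lower title numbers. In S100a6, S100a10, S100a14 and S100a16 each red bar is lower than each blue bar, and in S100a8 each red bar is higher.

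With both genotype and title number range in the model, S100a4 and S100a9 were the members furthest from 0 by genotype, neither of them called. S100a4 had 9.59, 5.12 and 3.59 CPM in the null-labelled libraries 1, 2 and 3, against 4.73, 4.25 and 2.97 CPM in wild type 1, 2 and 3. Within the lower title numbers the null-labelled library lay above both wild type libraries, and within the higher ones both lay above the wild type library. The log2 fold change in this model was 0.86 ± 0.22 (SE), with an unadjusted p of 0.00404. Over all genes it did not pass (adjusted p = 0.951 by edgeR, 0.647 by DESeq2). For S100a9 the value was 0.80 ± 0.37 by edgeR and 0.88 by DESeq2, above the 0.85 that DESeq2 gave S100a4. Taken by range, S100a4 was at 1.09 among lower and 0.52 among higher title numbers.

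Between the title number ranges the picture was different, and most members were lower in the libraries with higher numbers. With genotype as a term, edgeR called 5 of 8 members lower at an adjusted p under 0.05, S100a4, S100a6, S100a9, S100a10 and S100a16, and 0 higher. Over all tested genes 21.6% were called lower and 22.9% higher. The median log2 fold change of the 8, higher over lower title numbers, was -0.37, beside -0.03 over all tested genes. DESeq2 called 6 members lower, the same 5 and S100a14 (adjusted p = 0.0419), beside 17.4% of all genes it tested. Without overlap, 4 members lay lower in all 3 libraries with higher numbers and 1 lay higher, beside 28.5% lower and 29.8% higher of all tested genes (58.3% in all).

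These counts depended on scaling and on single libraries. With upper quartile scaling 7 members were called lower, beside 29.3% of all tested genes. The median over all genes then moved to -0.14, and the calls over all genes to 2450 higher and 3853 lower, against 3014 higher and 2845 lower with TMM. Only S100a4 was called without wild type 2 or without wild type 3, where 11.4% and 10.7% of all tested genes were called lower. Only S100a9 was called without the null-labelled library 1 (1.86% of all tested genes), and 0 of 8 without both the null-labelled library 1 and wild type 1 (0.0753%).

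**Figure D3:**
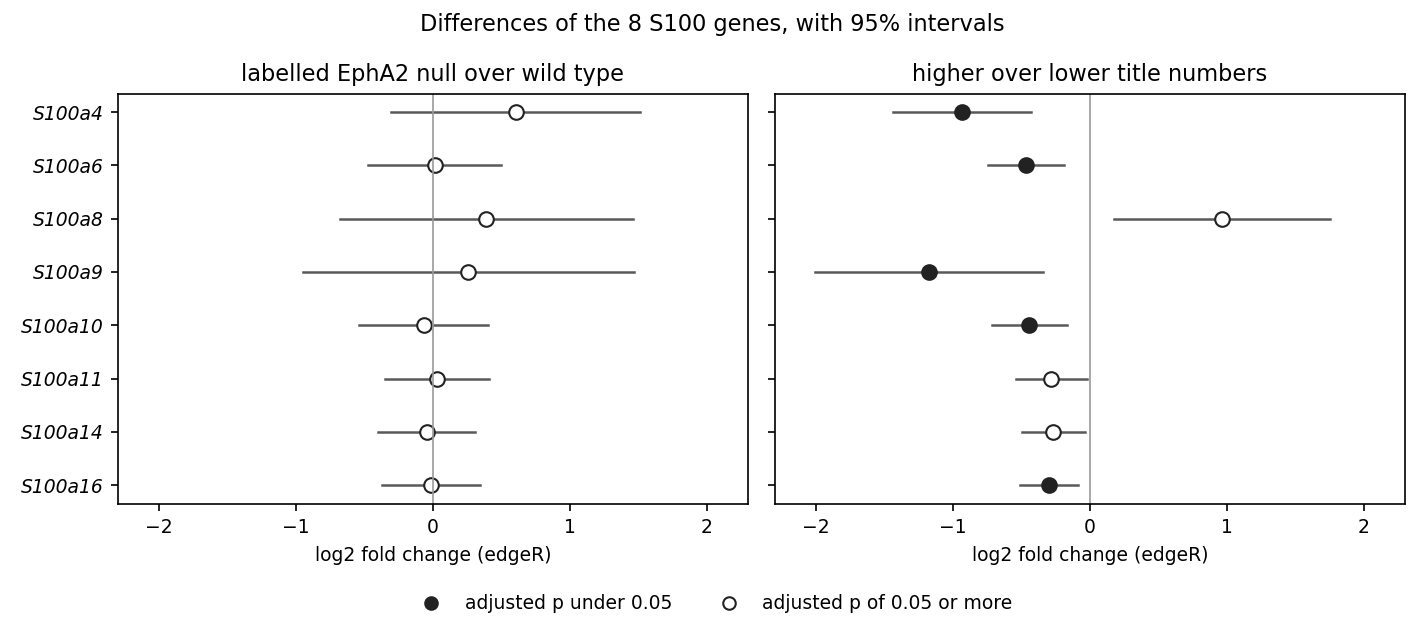
Log2 fold change of each S100 gene (point) with its 95% interval (line) in edgeR, for null-labelled libraries over wild type (left) and for higher over lower title numbers (right). Filled points have an adjusted p under 0.05. On the left all 8 intervals span 0, and on the right 7 values lie below 0 and S100a8 lies above at 0.96.

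S100a9 had the widest range of the 8 genes, 4.56-fold between its highest and lowest library. Its level was 15.6, 7.80 and 3.71 CPM in the libraries with higher title numbers (null-labelled 2 and 3, and wild type 3), against 16.9, 15.1 and 14.7 CPM in those with lower numbers (null-labelled 1, and wild type 1 and 2). The 3 libraries with lower numbers lay close together, while those with higher numbers were spread, and the null-labelled library 2 reached into the lower-number range. The log2 fold change, higher over lower, was -1.18 ± 0.36 (SE), the 95% interval ran from -2.01 to -0.35, and edgeR gave an adjusted p of 0.0297. It was -0.60 within the null-labelled libraries, of which library 1 alone has a lower number. Within wild type it was -2.00, and there wild type 3 alone has a higher number. Leaving out wild type 1 ended the call (edgeR adjusted p = 0.0697), as did leaving out wild type 2 (0.0725) or wild type 3 (0.228, log2 fold change -0.56), or the genotype term (0.117, log2 fold change -0.77). Without null-labelled library 1 the call held, at -2.03 (edgeR adjusted p = 0.0355).

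By genotype the mean of S100a9 was 13.4 ± 4.93 CPM in null-labelled and 11.1 ± 6.44 CPM in wild type libraries (SD, n = 3 each). The difference within the title number ranges was 0.19 on the log2 scale in the lower and 1.59 in the higher range. The latter rests on wild type 3 as the only wild type library of that range. The interaction term was 1.46 ± 0.53 (SE) with an unadjusted p of 0.0229 in edgeR, beside 4.52% of all tested genes under an unadjusted 0.05. Its adjusted p was 0.99996, so a difference of the genotype effect between the ranges was not shown. Among the 8 members S100a9 alone was under the unadjusted threshold in this test, and 0 of 8 passed after adjustment. Over all genes edgeR called 0 of the 13601 it tested, and DESeq2, run on 18389 genes, called 3.

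S100a8 was close to the limit of detection in these libraries. It had 26, 32 and 21 counts in the libraries with higher title numbers, against 17, 11 and 10 counts in those with lower numbers. The levels were 1.28, 1.195 and 1.42 CPM against 0.780, 0.531 and 0.583 CPM, without overlap. The log2 fold change, higher over lower, was 0.96 ± 0.35 (SE) and was not called (adjusted p = 0.0503 by edgeR, 0.151 by DESeq2). With genotype left out of the model it was 1.02 with an adjusted p of 0.0191, and with RLE scaling 0.98 with an adjusted p of 0.0466 (edgeR). Without wild type 3 it was 0.64 with an adjusted p of 0.412. The exact 95% counting interval ran from 5.49 to 19.7 around the 11 counts of wild type 1 and from 21.9 to 45.2 around the 32 counts of the null-labelled library 3.

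The fold changes of the calprotectin genes by title number had opposite signs, with that of S100a8 short of the threshold. S100a9 had 12.2, 6.53 and 2.62 counts for each S100a8 count in the libraries with higher numbers, against 21.7, 28.4 and 25.2 in those with lower numbers. The ratio was lower in each library of the higher range, although the exact 95% counting intervals of the null-labelled library 2 (8.17 to 19.0) and of the null-labelled library 1 (13.4 to 37.7) overlapped. Over summed counts it was 7.35 (5.81 to 9.43) against 24.6 (17.8 to 34.9), intervals that cover counting error only. By genotype the summed ratios were 11.9 (9.42 to 15.3) in the null-labelled libraries and 14.7 (10.8 to 20.7) in wild type, with overlapping intervals. Scaled by exon length, S100a9 exceeded S100a8 by between 3.48-fold and 37.7-fold in single libraries.

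**Figure D4:**
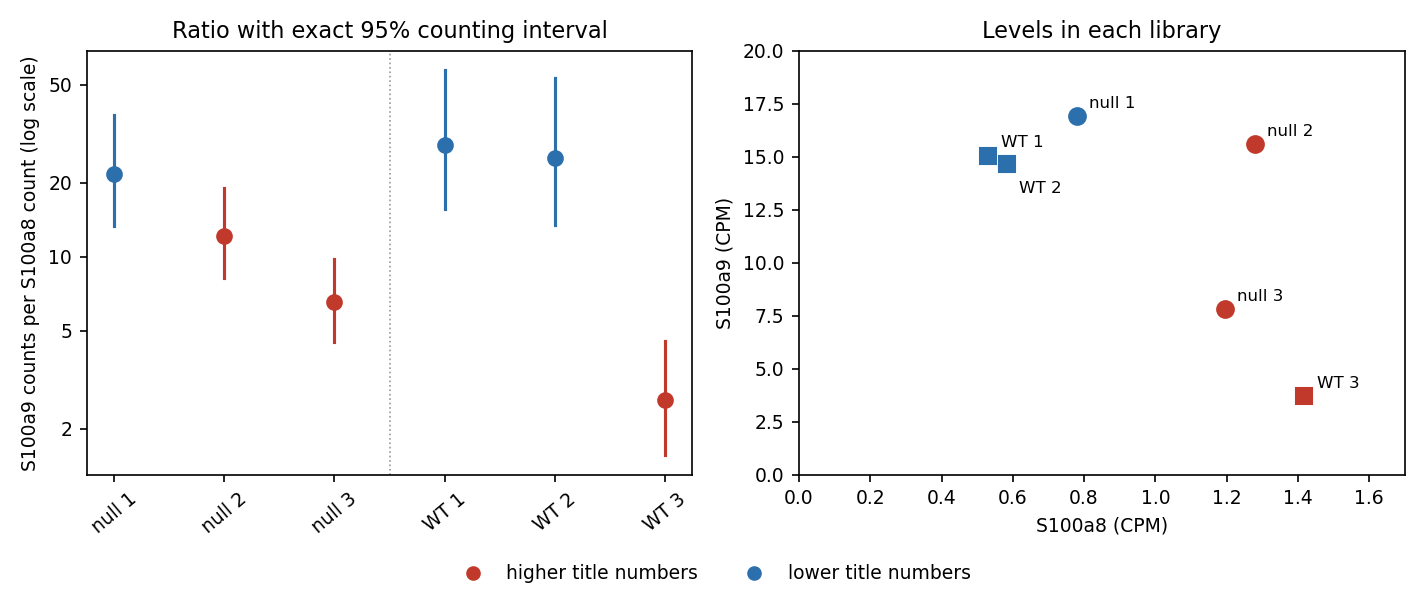
Left, counts of S100a9 for each count of S100a8 (log scale) in each library, with exact 95% counting intervals. Right, the level of both genes (CPM), circles for null-labelled libraries and squares for wild type. The ratio lies between 2.62 and 12.2 in the libraries with higher title numbers (red) and between 21.7 and 28.4 in those with lower numbers (blue).

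S100a4 was lower in the libraries with higher title numbers. It had 5.12, 3.59 and 2.97 CPM there, against 9.59, 4.73 and 4.25 CPM in those with lower numbers, with the null-labelled library 2 inside the lower-number range. The log2 fold change was -0.93 ± 0.22 (SE), with an edgeR adjusted p of 0.0108, and it was -1.17 within the null-labelled libraries and -0.60 within wild type. Without the null-labelled library 1, the highest of the 6, it was -0.63 and edgeR's adjusted p was 0.258, and with genotype left out of the model -0.67 with an adjusted p of 0.118. S100a4 is also known as a marker of fibroblasts and is made by myeloid cells. Of 10 fibroblast and keratocyte markers, Lum and Kera had 0 counts in all 6 libraries, and 3 were tested. Among these Vim was called lower, as S100a4 was, and Fn1 was called higher, so the list did not move in 1 direction. Its sum was 309 to 375 CPM in the higher and 117 to 210 CPM in the lower range. Summed myeloid and Langerhans cell markers were also lower in the higher range, at 4.03 to 8.24 CPM against 25.6 to 42.0 CPM in the lower range. Within the ranges their order differed from that of S100a4. The myeloid sum was highest in wild type 1 in the lower range and in wild type 3 in the higher range. S100a4 was highest in the null-labelled library 1 in the lower range and in the null-labelled library 2 in the higher range. The part of either cell type in the S100a4 difference was not tested. In bulk RNA, fewer cells of a type and less RNA per cell cannot be told apart.

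Of the 3 annexin-binding members, S100a6 and S100a10 were lower by title number. S100a6 had 3131, 2521 and 2628 CPM in the libraries with higher title numbers, against 3970, 3505 and 3409 CPM in those with lower numbers. The groups did not overlap, the log2 fold change was -0.47 ± 0.12 (SE), and edgeR's adjusted p was 0.0155. It was -0.51 within the null-labelled libraries and -0.40 within wild type. S100a10, whose protein joins annexin A2 in a complex at the plasma membrane, had 1046, 814 and 872 CPM against 1228, 1144 and 1219 CPM, also without overlap. Its log2 fold change was -0.44 ± 0.12 (SE; adjusted p = 0.0183, edgeR), with -0.43 within each genotype.

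Both calls were lost without any 1 of 3 libraries. For S100a6 the adjusted p was 0.0560 without wild type 2, 0.0611 without wild type 3 and 0.157 without the null-labelled library 1 (edgeR). For S100a10 the matching values were 0.0691, 0.104 and 0.129, with log2 fold changes between -0.42 and -0.47. S100a11 had 466, 363 and 375 CPM in the libraries with higher numbers, against 487, 461 and 451 CPM in those with lower numbers. The null-labelled library 2 lay within the lower-number range, and the log2 fold change of -0.28 ± 0.11 (SE) did not pass (adjusted p = 0.0736, edgeR).

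S100a14 and S100a16 encode epithelial members of the family and lie close together in the cluster. S100a14 had 692, 591 and 636 CPM in the libraries with higher title numbers, against 771, 719 and 763 CPM in those with lower numbers. The groups did not overlap, and the log2 fold change was -0.27 ± 0.10 (SE) and edgeR's adjusted p was 0.0600, so it was not called. S100a16 had 523, 477 and 487 CPM against 621, 555 and 595 CPM, without overlap, and was called at -0.30 ± 0.09 (SE; adjusted p = 0.0291, edgeR). Leaving out 1 library ended that call for wild type 2 (edgeR adjusted p = 0.102), wild type 3 (0.110), the null-labelled library 1 (0.236) or the null-labelled library 3 (0.0633). They had the most similar profiles of all pairs of members, with a root mean square difference of 0.0360 in centred log2 CPM over the 6 libraries.

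Of the other S100 genes listed, 8 were in the table and 4 passed the filter. By genotype 0 of 4 were called, with S100a13 at a log2 fold change of 0.15 ± 0.19 (SE) and S100a7a at 0.10 ± 0.22. By title number 2 of 4 were called lower, beside 21.6% of all tested genes. S100a1 was at -0.56 ± 0.12 (adjusted p = 0.00810, edgeR) and S100a7a, a psoriasin relative, at -0.45 ± 0.14 (adjusted p = 0.0278, edgeR). S100a3 and S100a13 were not called, at -0.10 and -0.18. S100a5, S100b and S100g had between 0 and 3 counts in each library, and S100z between 2 and 11. Of the 7 fused-type S100 genes, which join an S100 domain to long repeats, Crnn and Tchh passed the filter and neither was called by genotype (log2 fold changes 0.61 ± 0.37 and -0.07 ± 0.29) or by title number (-0.67 ± 0.35 and 0.30 ± 0.28).

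Among 13 tested genes for binding partners, 0 were called by genotype, where Plat, the tissue plasminogen activator, had 0.44 ± 0.42 and Anxa6 0.16 ± 0.19. By title number 4 were called higher and 3 lower, beside 22.9% higher and 21.6% lower of all tested genes (44.6% in either direction). Myh9, the non-muscle myosin heavy chain bound by S100A4, was higher by 0.81 ± 0.15 (adjusted p = 0.00463, edgeR). Nedd4l, a ubiquitin ligase, was higher by 0.68 ± 0.12 (adjusted p = 0.00387), and Anxa11, an annexin that binds S100A6, by 0.59 ± 0.11 (adjusted p = 0.00421). Cacybp, whose protein is named for its binding to calcyclin, was lower at -0.57 ± 0.10 (adjusted p = 0.00381). The S100a10 partner gene Anxa2 had 4395, 3607 and 4294 CPM in the libraries with higher numbers, against 5397, 4894 and 4987 CPM in those with lower numbers. Its log2 fold change of -0.34 ± 0.13 did not pass (adjusted p = 0.0538, edgeR), nor did that of the S100a11 partner gene Anxa1 at -0.37 ± 0.16 (adjusted p = 0.0998).

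Receptors and signalling proteins for released S100 proteins were tested for 7 of 10 genes. By genotype 0 of 7 were called, with Myd88 at 0.13 and Cd14 at -0.44 ± 0.65. By title number 3 were called lower and 0 higher, beside 21.6% lower and 22.9% higher of all tested genes (44.6% in either direction). Cd14, a coreceptor of Toll-like receptor 4, was lower by the widest margin at -1.84 ± 0.26 (adjusted p = 0.00255, edgeR), Tlr4 at -0.52 ± 0.12 (adjusted p = 0.00926) and Nptn, a receptor described for S100A8, at -0.34 ± 0.10 (adjusted p = 0.0233). Ager, which encodes the receptor RAGE, had between 1 and 8 counts in each library and was not tested.

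Of 10 transcription factor genes listed as regulators of S100 or barrier genes, 0 were called by genotype, with Cebpd at -0.64 ± 0.32 and Fosl1 at 1.38 ± 1.13. By title number 8 were called higher and 1 lower, beside 22.9% higher and 21.6% lower of all tested genes. Klf4 was higher by 1.44 ± 0.19 (adjusted p = 0.00239, edgeR), Grhl3 by 1.16 ± 0.15 (adjusted p = 0.00226), Junb by 0.89 ± 0.09 (adjusted p = 0.00190) and Fosl1 by 2.73 ± 0.84 (adjusted p = 0.0287). The C/EBP genes differed in direction. Cebpd was the 1 called lower, at -0.80 ± 0.17 (adjusted p = 0.00820, edgeR). Cebpb was called higher, at 0.70 ± 0.23 (adjusted p = 0.0348, edgeR), and Cebpa was not called, at 0.27. The Fosl1 level was 45.3, 4.78 and 13.3 CPM in the libraries with higher numbers, led by the null-labelled library 2, against 1.88, 3.52 and 3.32 CPM in those with lower numbers.

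Genes often named beside S100a8 and S100a9 in injured epithelium did not move as 1 group. Of 9 tested, 0 were called by genotype, with Krt16 at 1.69 ± 0.51 and Sprr1a at 1.13, neither passing. By title number 3 were called lower, Il1b (-1.60 ± 0.41, adjusted p = 0.0144, edgeR), Lcn2 (-1.29 ± 0.45, adjusted p = 0.0441) and Il1rn (-0.55 ± 0.12, adjusted p = 0.00789). Krt16 was called higher at 1.04 ± 0.36 (adjusted p = 0.0456, edgeR). Of all tested genes 21.6% were called lower and 22.9% higher (44.6% in either direction).

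Some markers of other cell types moved with the title numbers. Neutrophils carry large amounts of S100A8 and S100A9. Of the 12 neutrophil markers, 10 had together 3, 7 and 1 counts in the libraries with higher title numbers, against 5, 2 and 3 in those with lower numbers. The other 2, Ltf and Itgam, made up nearly the whole summed level of 315 to 367 CPM against 324 to 382 CPM. Ltf was lower at -0.80 ± 0.12 (adjusted p = 0.00277, edgeR), while Itgam was not called, at 0.04 ± 0.10 (adjusted p = 0.770, edgeR). Of the myeloid and Langerhans markers all 10 tested were called lower, beside 21.6% of all tested genes. Their median was -2.36, with Lyz2 at -2.99, H2-Aa at -2.85 and Ptprc at -2.72. The list summed to only 4.03 to 8.24 CPM in the higher and 25.6 to 42.0 CPM in the lower range. Some of these genes may therefore have passed the low-count filter only through the lower range, which favours lower calls. Lyz2 and Tyrobp passed it here but not in the genotype fit. The stromal list had 3 tested genes, with Vim lower at -1.97 and Fn1 higher at 1.26, and its sum was 309 to 375 CPM against 117 to 210 CPM. The 4 tested Schwann cell and melanocyte markers held 0 calls, beside 44.6% of all tested genes called in either direction.

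Some conjunctival and corneal markers differed too. Muc5ac, the mucin of conjunctival goblet cells, had 2.21, 1.68 and 0.675 CPM in the libraries with higher numbers, against 58.8, 38.5 and 5.24 CPM in those with lower numbers. The log2 fold change was -4.97 ± 0.71 (adjusted p = 0.00266, edgeR). Krt7 was also lower (-0.66) and Muc4 higher (0.61). Of the 6 conjunctival markers 2 were called lower and 1 higher, beside 21.6% and 22.9% of all tested genes. By log2 fold change 5 lay below 0 and 1 above, with a median of -0.61. The sum of the list did not follow these signs, at 11248 to 13959 CPM against 9300 to 12040 CPM, ranges that overlap. Of the 10 corneal epithelial markers 4 were called higher, Klf4, Cdh1, Aldh3a1 and Tkt, beside 22.9% of all tested genes. No corneal marker was called lower. Their list summed to 78091 to 85711 CPM against 59986 to 67972 CPM. By genotype 0 genes of these marker lists were called, where all 8 tested myeloid markers lay below 0 (median -0.96), with Csf1r at -1.24 ± 0.80. With title number range added to that model, 7 of 10 lay below 0 (median -0.33) and 0 were called, with Csf1r at -0.53 ± 0.41 and Ptprc at 0.33 ± 0.36. Lyz2 (0.35) and Tyrobp (0.44) were tested only with that term, so the medians cover different genes. The part of these cell types in the S100 differences was not tested.

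**Figure D5:**
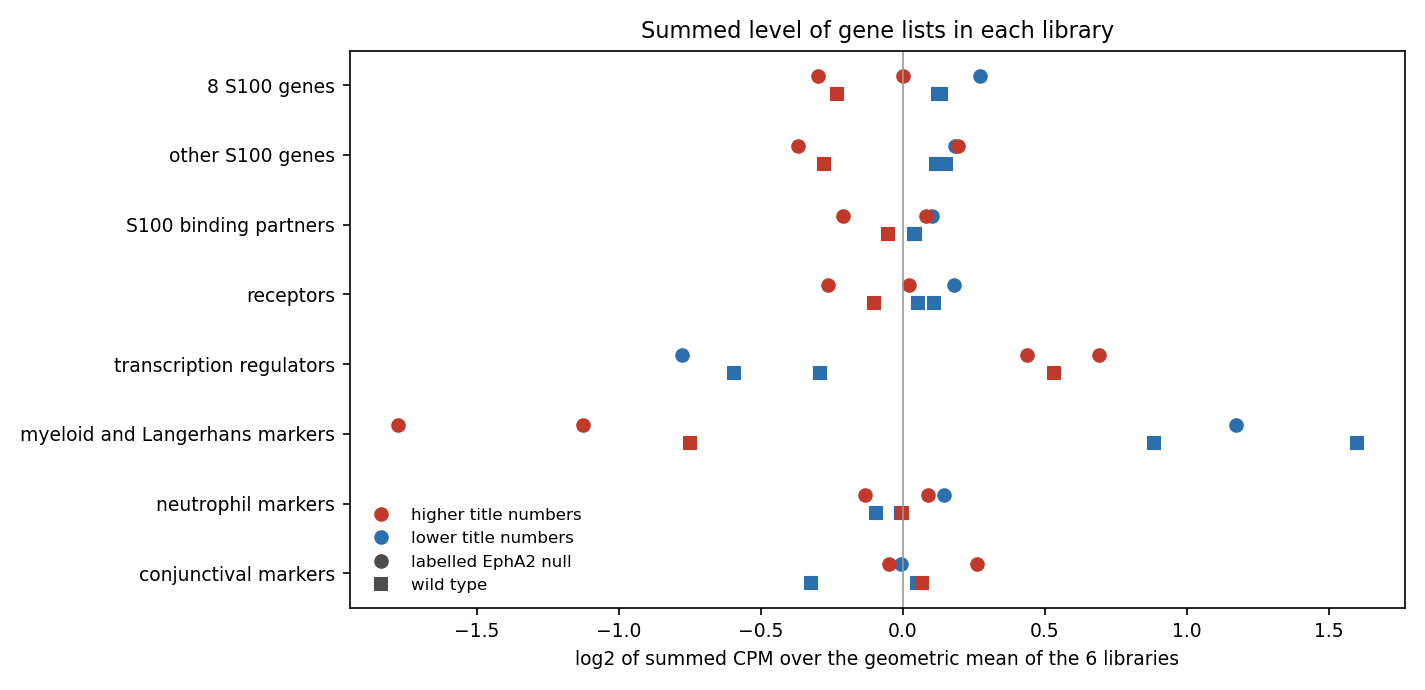
Summed level of each gene list in each library, as the log2 ratio to the geometric mean of the 6 libraries, with circles for null-labelled libraries and squares for wild type. Red marks higher and blue lower title numbers. The 8 S100 genes sum to 4777 to 5880 CPM in the higher and 6404 to 7104 CPM in the lower range, and the myeloid markers show the widest separation.

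Profiles over the 6 libraries were also compared with all other genes of at least 10 CPM on average, by the root mean square difference of centred log2 CPM (0.5 added). The measure is a description over 6 libraries that fall into separate groups by title number. S100a6 was closest to Cryl1 (0.0182), Polr1c (0.0293) and C87436 (0.0328), and S100a10 to Mrpl33 (0.0310), Vamp8 (0.0331) and Serinc3 (0.0346). S100a11 was closest to Chchd2 (0.0264), Pfdn4 (0.0359) and Fxr1 (0.0375), S100a14 to Emc4 (0.0162), Ipo7 (0.0196) and Cd151 (0.0219), and S100a16 to Pdxdc1 (0.0131), Gnai3 (0.0142) and Dync1i2 (0.0159).

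For S100a4 and S100a9 the nearest profiles lay further away. S100a4 was nearest to Ltf, the lactoferrin gene, at 0.199, then to Ddit3 (0.226) and Hspe1 (0.228). S100a9 was nearest to the potassium channel gene Kcnj15 at 0.188, followed by St3gal4 (0.233) and Slc5a9 (0.263). Kcnj15 had 12.0, 6.98 and 4.32 CPM in the libraries with higher title numbers, against 14.9, 15.97 and 15.2 CPM in those with lower numbers. S100a8 was nearest to Adcy2 (0.0662), Bcl2l11 (0.0751) and Srgap3 (0.0908), each of which had its 3 highest levels in the libraries with higher numbers. The value added to each CPM narrowed the range of S100a8 between libraries from 2.67-fold to 1.86-fold. The small distances of S100a8 describe this narrowed profile and cannot be set against those of S100a4 and S100a9. With 10 to 32 counts of S100a8 per library they also carry counting error.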

How the data were processed

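Per the series design text, corneal epithelial sheets gave total RNA (miRNeasy), read on an Illumina HiSeq. The authors deposited raw counts per Ensembl gene for 6 libraries. The sources used here do not give the aligner, counting program, strand setting, genome build or annotation, so reads of overlapping genes cannot be told apart. Columns were matched to samples by title. Names came for 24942 of 25006 genes from a gene table, and positions and exon lengths from GENCODE M21 (GRCm38), which was not checked against the authors' annotation.

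Genotypes were compared with edgeR 4.0.16 in R 4.3.3 (TMM factors, filterByExpr, glmQLFit, glmQLFTest), with genotype alone. Title number ranges were compared with genotype as a term, and an interaction was fitted. P-values were adjusted by Benjamini-Hochberg over all tested genes, with calls under 0.05. The SE is the size of the log2 fold change divided by the square root of F. DESeq2 1.42.0, limma 3.58.1 (voom), other scalings and filters, and each library left out were alternatives. Ratios of counts have exact 95% intervals, which cover counting error only. On simulated counts for the genotype comparison (12917 genes) edgeR recovered 50% of 1.5-fold and 94% of 2-fold changes, and for the title number comparison (13227 genes) 46% and 86%. The simulated spread was that left within genotype and title number range, so the genotype values overstate what the test can find here. No pair of libraries agreed within counting noise (lowest chi-square per degree of freedom 11.2).

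The members and 12 gene lists were chosen with earlier results of these data known. The title number ranges were compared because earlier work on these data had found that they separate the libraries. Named genes are all members, for each list up to 4 called genes with the largest change or otherwise up to 2 with the smallest p, and for each member the 3 genes with the nearest profile. Padi1, Anxa1, Anxa2, Cebpa, Cebpb, the low-count S100 genes, Ager and single markers were named after their values were seen.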

Additional observations from a re-analysis of the deposited data

How the results depend on the processing

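By genotype the count of S100 genes called stayed at 0 in every alternative run. The count over all genes was 1 (Padi1), 5 with DESeq2, 17 with DESeq2 and title number range in the model, and 0 with samples sharing a title number summed. The interaction count was 0 with edgeR and 3 with DESeq2. Small genotype log2 fold changes turned sign, and the cause was not tested. With title number range added to the model they were 0.080 for S100a10, 0.040 for S100a14 and 0.080 for S100a16 (0.075, 0.036 and 0.076 in DESeq2), and 0.052, 0.020 and 0.065 with summed samples. With upper quartile scaling they were -0.0021 for S100a11 and -0.017 for S100a6, and for S100a6 -0.0010 when genes under 1 CPM on average were dropped and -4.9e-05 with voom. With 1 library left out they ran from -0.22 to 0.07 for S100a10, -0.070 to 0.15 for S100a11, -0.14 to 0.049 for S100a14, -0.13 to 0.066 for S100a16, -0.17 to 0.16 for S100a6 -0.16 to 0.54 for S100a9, and kept their sign from 0.11 to 0.88 for S100a4 and 0.13 to 0.95 for S100a8.

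By title number no S100 gene changed sign in any alternative run. The number called was 5, and 1 to 7 with 1 library left out, while the count over all genes was 5859, and 846 to 5803. Without the libraries labelled EphA2 null 1 and wild type 1, chosen after seeing their Muc5ac levels, these were 0 and 46, with 4 libraries in the fit. No paired analysis was possible because no title number is shared by both genotypes. The title number range, which holds both, served as a block in the fits above. S100a8 gives no value under the filter of 1 CPM. Depth limits S100a8 above all, with 10 to 32 counts per library.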
